A study of Mus musculus with 36 samples.

Results

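The chemokine genes followed here were Ccl2, Ccl7, Ccl11, Ccl12 and Ccl8, which lie side by side on mouse chromosome 11, Ccl9, Ccl6, Ccl3 and Ccl4 from a second stretch of the same chromosome, and Ccr2, a receptor gene on chromosome 9. Each of the 10 genes had exactly 1 probe set annotated to it alone and none shared with another gene, out of 19938 genes with a probe set of their own. RNA of the distal colon was measured on Affymetrix arrays in 36 mice, 1 array per animal. By title the mice fell into 8 given siTNF-OMe-P, 6 given siTNF-OMe, 6 given siTNF, 7 given a scrambled siRNA and 9 called Control. An siRNA is a short double-stranded RNA meant to lower the messenger RNA it matches. siTNF is an siRNA against the Tnf messenger without modified nucleotides, siTNF-OMe carries O-methyl nucleotides, siTNF-OMe-P carries O-methyl-propanediol nucleotides, and the scrambled siRNA is the control sequence. All siRNAs reached the colon by the intrarectal route. On the labels, 5% DSS (dextran sulfate sodium, which injures the colon epithelium) stands beside every animal, Control included, while the design text names only the siRNA-dosed animals, so what the Control mice received is not settled here. Activity of myeloperoxidase (MPO), a neutrophil enzyme, ran from 0.009 to 0.088 U per mg in Control. It ran from 0.031 to 0.815 in siTNF-OMe-P, 0.217 to 1.157 in siTNF-OMe, 0.057 to 0.703 in siTNF and 0.238 to 1.35 in scrambled. If Control had no DSS, differences over Control hold both DSS and siRNA dosing, which cannot be told apart. Strain, age and dose are not given in the sources used here.

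Chemokines are small secreted proteins that draw leukocytes along a gradient, and CC chemokines are named for a pair of adjacent cysteines. Ccl2, Ccl7 and Ccl12 signal through Ccr2, the receptor that lets classical monocytes leave the bone marrow and enter inflamed tissue, where they become macrophages. Such recruitment replenishes colon macrophages, and chemokine genes of this kind are induced by microbial products and by cytokines such as tumour necrosis factor in stromal, endothelial and myeloid cells. The 10 genes were chosen with their differences over Control already known. Their differences over Control are therefore described only. Counts of members called over Control are given, but nothing is read from them. Tests on the members are read only among the siRNA-dosed animals.

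The upstream sequences of Ccl8 and of Ccl12, its nearest chemokine neighbour, are shown because these genes lie next to each other and yet differed from Control by very different amounts. Both are the 250 bases before the annotated start, 5′ to 3′ on the + strand, from RefSeq on GRCm38.p6, at chr11:82114935-82115184 for Ccl8 and chr11:82101595-82101844 for Ccl12. Capitals mark matches to a pair of motifs. The first is TATAAA, the TATA box bound by the basal transcription machinery. The second is GAGGAA, which reads TTCCTC on the other strand.
Ccl8: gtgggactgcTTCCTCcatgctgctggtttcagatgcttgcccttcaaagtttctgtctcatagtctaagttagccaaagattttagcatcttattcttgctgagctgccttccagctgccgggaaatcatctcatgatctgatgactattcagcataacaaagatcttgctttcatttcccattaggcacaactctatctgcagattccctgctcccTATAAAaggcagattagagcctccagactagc
Ccl12: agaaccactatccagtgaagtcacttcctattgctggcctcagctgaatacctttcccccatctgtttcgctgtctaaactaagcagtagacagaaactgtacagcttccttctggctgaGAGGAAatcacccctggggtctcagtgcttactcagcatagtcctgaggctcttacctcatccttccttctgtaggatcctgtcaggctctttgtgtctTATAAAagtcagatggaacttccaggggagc
Both sequences hold TATAAA close to the start, beginning at base -32 in Ccl8 and at -31 in Ccl12, and 12.4% of 32851 mouse promoter windows of this length hold it on either strand. GAGGAA, which macrophage factors of the PU.1 type can bind, occurs once in each, at -240 on the minus strand of Ccl8 and at -130 on the plus strand of Ccl12, and 23.2% of the windows hold it. Further patterns were searched on both strands without a match in either gene, namely an NF-kB-like pattern (held by 45.8% of windows), the AP-1-like TGANTCA (6.75%), an interferon-response-like pattern (2.98%) and the STAT-like TTCNNNGAA (7.02%). No match says only that those letters are not in these windows. In a global alignment the 2 windows shared 150 identical bases of 230 aligned, and for the other pairs among the 6 members with a window the identical bases ran from 125 to 143. The table used holds no window for Ccl2, Ccl7, Ccl11 and Ccl4.

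The spread of values differed between arrays and bears on several members. The SD of all log2 values on an array ran from 1.55 to 1.89, and it was under 1.7 on 8 arrays, called narrow here, which were 2 siTNF-OMe-P, 0 siTNF-OMe, 1 siTNF, 1 scrambled and 4 Control arrays. No pair of arrays was identical, and pairs of arrays correlated at 0.852 or more. Every array held colon epithelium, with a mean log2 level of 7 markers between 12.3 and 12.9. The mean level of 4 markers of squamous epithelium, not found in normal colon, was uneven. It ran from 7.52 to 11.9 in siTNF-OMe-P, 7.45 to 11.3 in siTNF-OMe and 7.27 to 10.2 in siTNF. In scrambled it was 7.34 to 7.51 and in Control 7.16 to 7.67. Some arrays thus carried squamous signal besides colon, and its part in the member values was not tested. The targeted gene, Tnf, had a median log2 signal of 8.70 in siTNF-OMe-P, 8.80 in siTNF-OMe and 9.17 in siTNF colons, against 8.67 in scrambled and 7.91 in Control, and it passed the test in none of the comparisons among siRNA-dosed groups.

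Ccl8 stood far above Control in every siRNA-dosed group, about 11 to 14 times in linear terms. Mouse Ccl8 is a monocyte chemoattractant protein by sequence and has been described as a ligand of Ccr8. Its lowest, median and highest log2 signals were 9.25, 10.30 and 10.72 in siTNF-OMe-P, 10.23, 10.42 and 10.89 in siTNF-OMe, 9.92, 10.21 and 10.60 in siTNF, 9.36, 10.16 and 11.05 in scrambled, and 6.45, 6.68 and 6.92 in Control. All 27 siRNA-dosed arrays were above all 9 Control arrays, with a gap of more than 2 log2 units between the lowest of them and the highest Control array. By mean the order was siTNF-OMe (10.47 ± 0.22, SD, n = 6), siTNF (10.23 ± 0.26, n = 6), scrambled (10.21 ± 0.61, n = 7), siTNF-OMe-P (10.21 ± 0.51, n = 8) and Control (6.68 ± 0.14, n = 9). The ranges of the first 4 of these overlapped. In a linear model with amplification and hybridization batch as terms, the log2 difference over Control was 3.50 ± 0.18 (SE) for siTNF-OMe-P, 3.79 ± 0.19 for siTNF-OMe, 3.55 ± 0.19 for siTNF and 3.55 ± 0.19 for scrambled. These correspond to 11.3-fold, 13.8-fold, 11.7-fold and 11.7-fold higher signals. The Control mean of Ccl8 was low, with 17.8% of probe sets having a lower one, and signal over background is not given, so these folds may understate the difference. Among all probe sets, that of Ccl8 had the second largest difference over Control for siTNF-OMe-P, siTNF and scrambled (rank 2) and the third largest for siTNF-OMe (rank 3). The 4 differences share the same Control arrays.

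**Figure D1:**
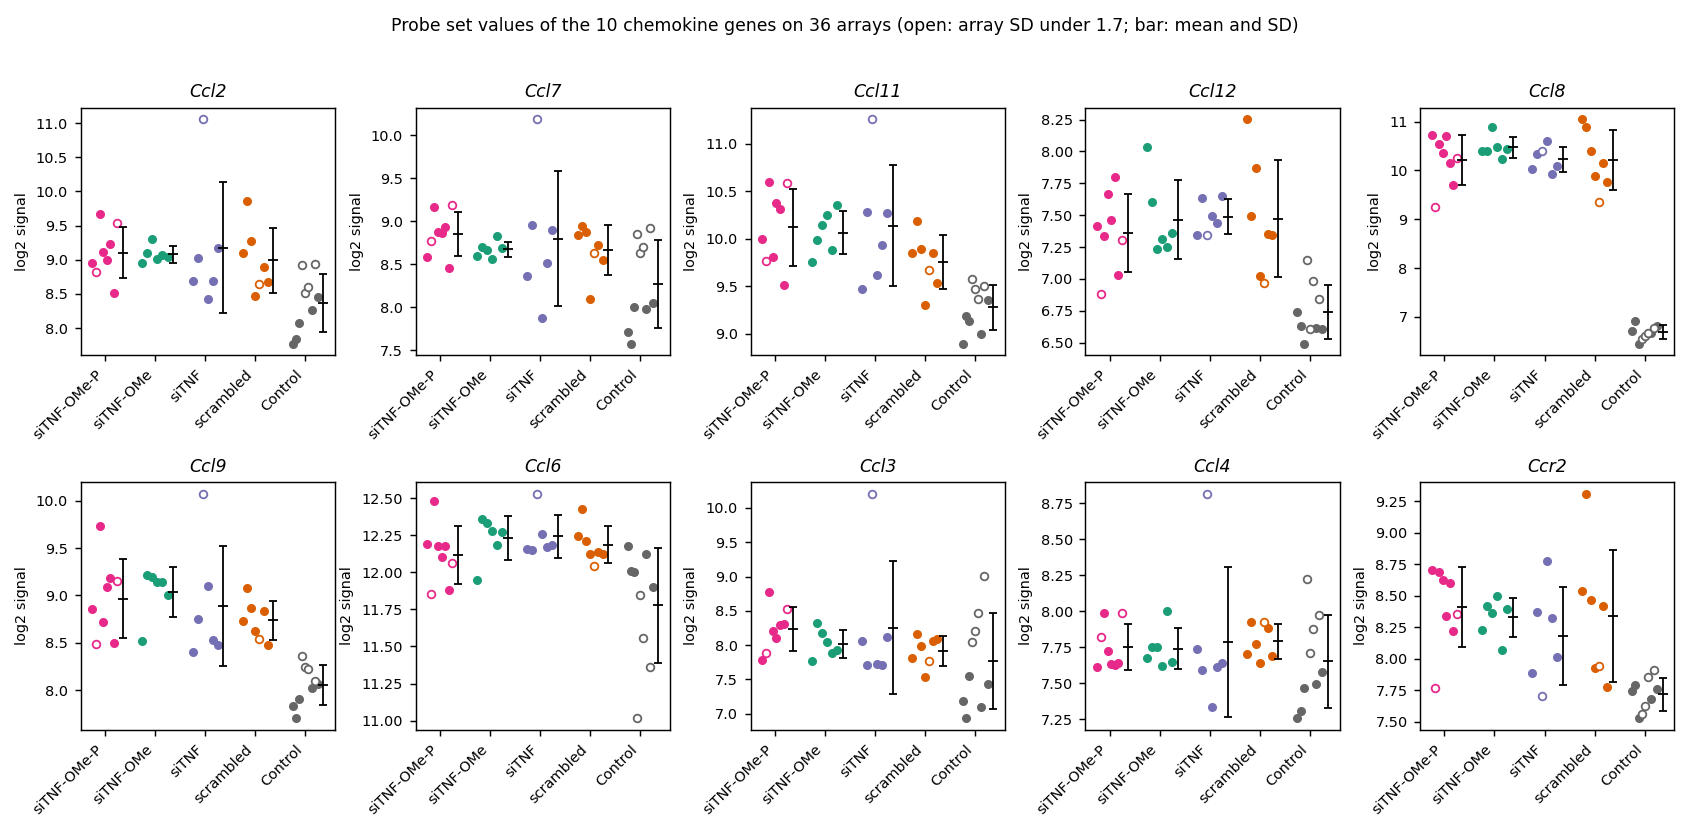
Log2 signal (vertical axis) of each of the 10 genes on each of 36 arrays, by group; open circles are arrays whose SD is under 1.7, and the black mark and bar are the group mean and SD. Ccl8 is above 9 on every siRNA-dosed array and below 7 on every Control array, whereas for Ccl2, Ccl7, Ccl11, Ccl9, Ccl6, Ccl3 and Ccl4 one open siTNF circle (replicate 3) lies above all others.

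The 4 near neighbours of Ccl8 were also above Control on average, but by less than 1 log2 unit. Ccl12, a mouse ligand of Ccr2, had lowest, median and highest log2 signals of 6.88, 7.37 and 7.80 in siTNF-OMe-P, 7.23, 7.34 and 8.04 in siTNF-OMe, 7.34, 7.47 and 7.65 in siTNF, 6.97, 7.35 and 8.25 in scrambled, and 6.49, 6.63 and 7.15 in Control. The siTNF-OMe and siTNF arrays did not overlap Control, and the other groups did. With the narrow arrays left out, Control ended at 6.74, and siTNF-OMe-P (lowest 7.03) and scrambled (lowest 7.02) did not overlap it either. Its log2 differences over Control were 0.60 ± 0.14 (SE), 0.73 ± 0.15, 0.74 ± 0.15 and 0.75 ± 0.15 for siTNF-OMe-P, siTNF-OMe, siTNF and scrambled. Its signal was low, with a mean among the lowest 40% of probe sets.

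Ccl2, the main Ccr2 ligand of this family, had lowest, median and highest log2 signals of 8.52, 9.06 and 9.67 in siTNF-OMe-P, 8.96, 9.05 and 9.31 in siTNF-OMe, 8.43, 8.86 and 11.06 in siTNF, 8.47, 8.89 and 9.86 in scrambled, and 7.77, 8.46 and 8.94 in Control. Only the siTNF-OMe arrays, of which 0 were narrow, lay wholly above Control. With the narrow arrays left out, Control ran from 7.77 to 8.46. The siTNF-OMe-P arrays (lowest 8.52) and scrambled arrays (lowest 8.47) then also lay wholly above it, and siTNF (lowest 8.43) did not. The log2 difference over Control was 0.73 ± 0.23 (SE) for siTNF-OMe-P, 0.67 ± 0.25 for siTNF-OMe, 0.85 ± 0.25 for siTNF and 0.61 ± 0.24 for scrambled. The siTNF value rested in part on replicate 3, the array at 11.06. Without it the value was 0.49.

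Ccl7, a chemokine that binds Ccr2 and other receptors, ran from 8.46 through a median of 8.87 to 9.19 in siTNF-OMe-P, from 8.57 through 8.68 to 8.82 in siTNF-OMe, from 7.87 through 8.71 to 10.19 in siTNF and from 8.10 through 8.73 to 8.95 in scrambled, against 7.58 through 8.05 to 8.92 in Control. No group lay wholly above Control. Its log2 differences were 0.59 ± 0.21 (SE), 0.38 ± 0.22, 0.56 ± 0.22 and 0.38 ± 0.21 in the same order of groups, and the siTNF value was 0.29 without replicate 3. With the 8 narrow arrays left out they were 0.95, 0.80, 0.67 and 0.81, and siTNF-OMe-P, siTNF-OMe and scrambled then lay wholly above Control, whose other 5 arrays ran from 7.58 to 8.05.

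Ccl11, or eotaxin, which draws eosinophils through Ccr3, ran from 9.51 through a median of 10.15 to 10.60 in siTNF-OMe-P, from 9.76 through 10.07 to 10.35 in siTNF-OMe, from 9.47 through 10.10 to 11.26 in siTNF and from 9.30 through 9.85 to 10.19 in scrambled, against 8.89 through 9.35 to 9.57 in Control. Only the siTNF-OMe arrays were free of overlap with Control. With the narrow arrays left out, Control ended at 9.35. The siTNF-OMe-P arrays (lowest 9.51) and siTNF arrays (lowest 9.47) were then also free of overlap, and scrambled (lowest 9.30) was not. Differences over Control were 0.84 ± 0.17 (SE), 0.77 ± 0.19, 0.90 ± 0.19 and 0.47 ± 0.18 log2 for siTNF-OMe-P, siTNF-OMe, siTNF and scrambled. Without replicate 3 the siTNF value was 0.67. Of 9 eosinophil and mast cell markers, 0 passed the test over Control in either direction in any group. In siTNF-OMe-P, siTNF-OMe, siTNF and scrambled, 15.9, 14.8, 13.8 and 11.7% of all probe sets passed in either direction. At an unadjusted p under 0.05 there were 1 or 2 of these markers, while 5934 to 7078 of all probe sets were at that level. With so few markers, nothing about eosinophils is read from these counts.

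In gene order on chromosome 11 the run is Ccl2, Ccl7, Ccl11, Ccl12, Ccl8 and then Ccl1, a ligand of Ccr8. The large difference at Ccl8 did not continue to the gene after it. Ccl1 differed from Control by -0.14 ± 0.17 log2 (SE) in siTNF-OMe-P, -0.17 ± 0.18 in siTNF-OMe, -0.26 ± 0.18 in siTNF and -0.18 ± 0.17 in scrambled. The next gene, Tmem132e, lay between -0.023 and 0.015 log2. On the second stretch the order is Ccl5, Ccl9, E230016K23Rik, Ccl6, Ccl3, Ccl4 and Wfdc17. There the largest differences belonged to no chemokine: Wfdc17, which encodes a small protein with a whey acidic protein domain, was above Control by 2.73 ± 0.13 log2 in siTNF-OMe-P, 2.91 ± 0.14 in siTNF-OMe, 2.76 ± 0.14 in siTNF and 2.63 ± 0.14 in scrambled. Its neighbour Wfdc18 was above Control by 1.82, 2.24, 2.07 and 1.64 log2 in those groups.

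**Figure D2:**
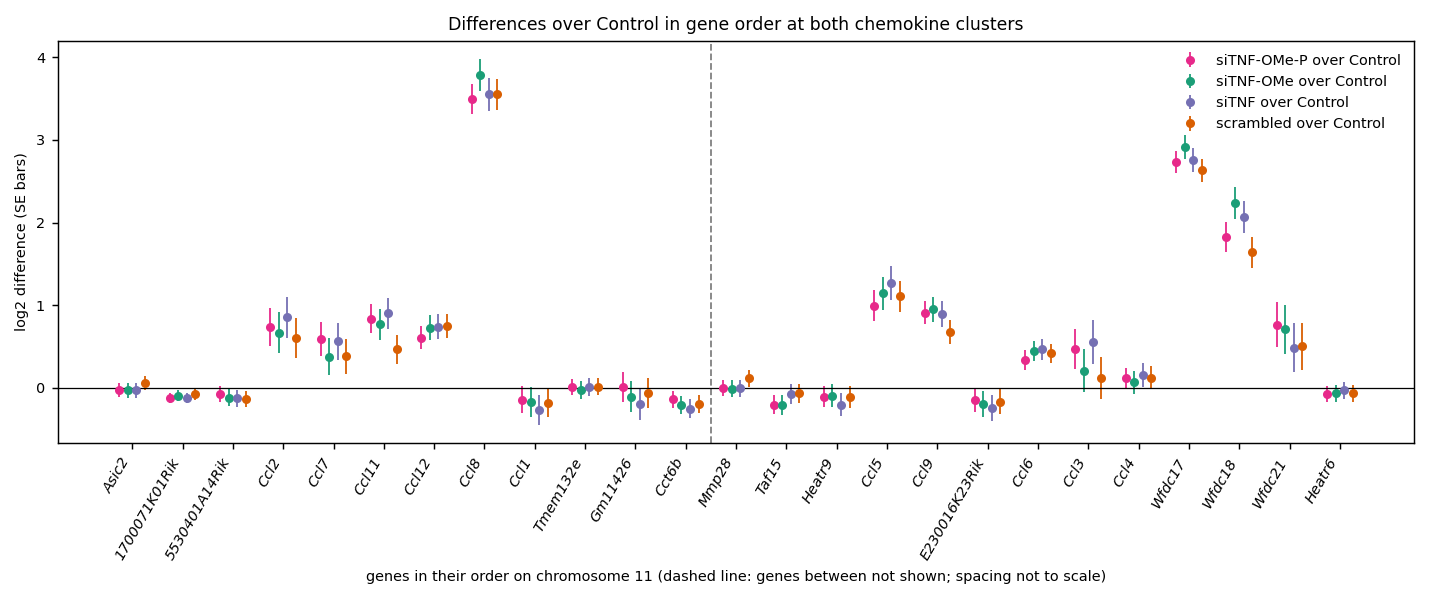
Log2 difference over Control (vertical axis, bars are SE) for each siRNA-dosed group, for genes in their order along chromosome 11; the dashed line parts the 2 chemokine stretches and spacing is not to scale. Ccl8 lies at 3.50 to 3.79 while the 4 chemokine genes before it lie at 0.38 to 0.90 and Ccl1 after it lies below 0.

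To set Ccl8 against its neighbours within each array, the mean log2 signal of Ccl2, Ccl7, Ccl11 and Ccl12 was subtracted from that of Ccl8. Only changes of this gap between groups can be read, since levels of different probe sets are not comparable. The gap had a lowest, median and highest value of 0.69, 1.33 and 1.98 in siTNF-OMe-P, 1.48, 1.57 and 2.05 in siTNF-OMe, 0.43, 1.32 and 2.25 in siTNF and 0.88, 1.45 and 2.04 in scrambled, against -2.08, -1.48 and -0.88 in Control. Every siRNA-dosed array was above every Control array. The gap exceeded that of Control by 2.83 ± 0.19 log2 (SE) in siTNF-OMe-P, 3.13 ± 0.17 in siTNF-OMe, 2.81 ± 0.25 in siTNF and 2.97 ± 0.19 in scrambled, or 7.0-fold to 8.8-fold in linear terms, which the low Control level of Ccl8 may likewise understate.

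Between siRNA-dosed groups the gap did not pass an exact two-sided permutation test, with p adjusted over 6 comparisons. It was 1.35 ± 0.41 in siTNF-OMe-P (SD, n = 8), 1.65 ± 0.21 in siTNF-OMe (n = 6), 1.33 ± 0.60 in siTNF (n = 6) and 1.49 ± 0.38 in scrambled (n = 7). Set against siTNF-OMe, siTNF-OMe-P had a 95% interval of the difference of -0.71 to 0.096. Set against siTNF, the interval was -0.56 to 0.59 for siTNF-OMe-P, and it was -0.23 to 0.87 for siTNF-OMe. Over scrambled it was -0.59 to 0.30 for siTNF-OMe-P, -0.22 to 0.55 for siTNF-OMe and -0.75 to 0.44 for siTNF. The exact permutation adjusted p was 0.960 for siTNF-OMe-P over siTNF and 0.681 for each of the other 5. One array changed a call: without siTNF replicate 4, which has the highest gap of its group (2.25), siTNF-OMe exceeded siTNF by 0.51 with an exact permutation adjusted p of 0.0390.

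**Figure D3:**
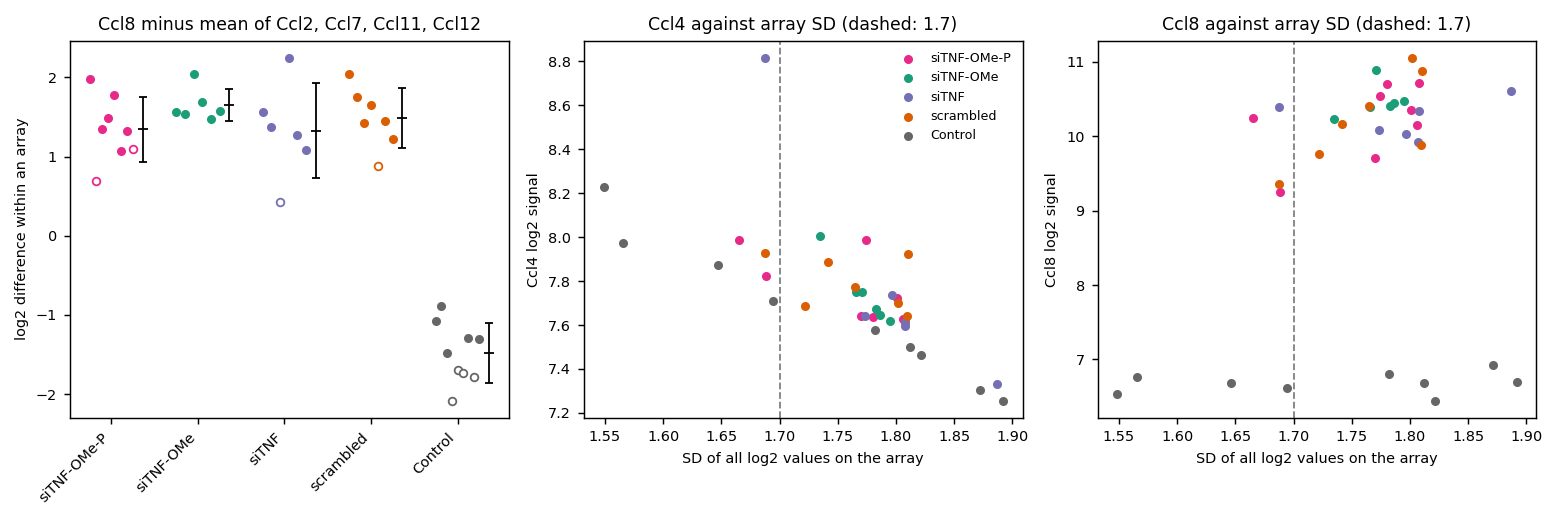
Left, log2 signal of Ccl8 minus the mean of Ccl2, Ccl7, Ccl11 and Ccl12 on each array by group (open: array SD under 1.7; bar: mean and SD); middle and right, log2 signal of Ccl4 and of Ccl8 against the SD of all log2 values on the array. The gap is above 0.4 on all siRNA-dosed arrays and below -0.8 on all Control arrays, and Ccl4 declines with array SD within groups whereas Ccl8 in Control stays between 6.45 and 6.92 at every array SD.

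Ccl9 and Ccl6, chemokines of rodents that signal through Ccr1, were above Control on average in all 4 groups. Ccl9 had lowest, median and highest log2 signals of 8.49, 8.97 and 9.73 in siTNF-OMe-P, 8.52, 9.14 and 9.22 in siTNF-OMe, 8.40, 8.64 and 10.08 in siTNF and 8.47, 8.73 and 9.08 in scrambled, against 7.70, 8.06 and 8.36 in Control. Like Ccl8, it overlapped Control in no group. Its differences were 0.91 ± 0.14, 0.95 ± 0.15, 0.89 ± 0.15 and 0.68 ± 0.15 log2 (SE) for siTNF-OMe-P, siTNF-OMe, siTNF and scrambled.

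Ccl6 had lowest, median and highest log2 signals of 11.85, 12.14 and 12.48 in siTNF-OMe-P, 11.95, 12.28 and 12.36 in siTNF-OMe, 12.15, 12.18 and 12.53 in siTNF and 12.04, 12.14 and 12.43 in scrambled, against 11.02, 11.90 and 12.18 in Control. It overlapped Control in each group. The differences were 0.34 ± 0.12, 0.45 ± 0.12, 0.47 ± 0.13 and 0.42 ± 0.12 log2 (SE), and with the 8 narrow arrays left out they were 0.071, 0.15, 0.16 and 0.15. The 4 narrow Control arrays held the lowest Ccl6 values of that group, 11.02 to 11.85, against 11.90 to 12.18 on the other 5.

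Ccl3 and Ccl4, macrophage inflammatory proteins that draw monocytes and lymphocytes, overlapped Control in every group. Ccl3 ran from 7.78 through a median of 8.25 to 8.77 in siTNF-OMe-P, from 7.77 through 7.99 to 8.31 in siTNF-OMe, from 7.71 through 7.89 to 10.21 in siTNF and from 7.54 through 7.98 to 8.16 in scrambled, against 6.93 through 7.54 to 9.01 in Control. Apart from siTNF replicate 3, no siRNA-dosed array was above the highest Control array. The differences were 0.47 ± 0.24, 0.21 ± 0.26, 0.56 ± 0.26 and 0.12 ± 0.25 log2 (SE), and the siTNF value was 0.18 without replicate 3.

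Ccl4 ran from 7.62 through 7.68 to 7.99 in siTNF-OMe-P, from 7.62 through 7.71 to 8.00 in siTNF-OMe, from 7.33 through 7.63 to 8.82 in siTNF and from 7.64 through 7.77 to 7.93 in scrambled, against 7.26 through 7.58 to 8.23 in Control. Its differences of 0.11 ± 0.13, 0.064 ± 0.14, 0.16 ± 0.14 and 0.12 ± 0.13 log2 (SE) were no larger than about their error, and without siTNF replicate 3 the siTNF value was -0.042. The narrow Control arrays carried Ccl3 at 8.05 to 9.01 and Ccl4 at 7.71 to 8.23, against 6.93 to 7.54 and 7.26 to 7.58 on the other 5 Control arrays. With the narrow arrays left out, Ccl3 was above Control by 0.92, 0.72, 0.65 and 0.65 log2 and Ccl4 by 0.29, 0.32, 0.19 and 0.36 for siTNF-OMe-P, siTNF-OMe, siTNF and scrambled.

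Ccr2, the receptor, had lowest, median and highest log2 signals of 7.77, 8.48 and 8.71 in siTNF-OMe-P, 8.07, 8.38 and 8.50 in siTNF-OMe, 7.71, 8.17 and 8.78 in siTNF and 7.78, 8.42 and 9.31 in scrambled, against 7.53, 7.74 and 7.91 in Control. Only the siTNF-OMe arrays were all above Control. With the narrow arrays left out, Control ended at 7.79. The siTNF-OMe-P arrays (lowest 8.22) and siTNF arrays (lowest 7.89) were then also all above it, and scrambled (lowest 7.78) was not. Differences over Control were 0.68 ± 0.16, 0.61 ± 0.17, 0.48 ± 0.17 and 0.63 ± 0.16 log2 (SE) for siTNF-OMe-P, siTNF-OMe, siTNF and scrambled. In bulk tissue, more cells of a type cannot be told apart from more RNA per cell.

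Counted over the members, all 10 differences over Control were above 0 in each of the 4 comparisons. At an adjusted p under 0.05, 8 of 10 were called higher in siTNF-OMe-P, 6 in siTNF-OMe, 6 in siTNF and 5 in scrambled, and 0 lower, where 9.35, 9.01, 9.09 and 7.27% of all probe sets were called higher and 6.58, 5.81, 4.71 and 4.45% lower (15.9, 14.8, 13.8 and 11.7% in either direction). Lying wholly above Control were 2, 6, 3 and 2 members, where 2.5, 4.56, 2.29 and 1.82% of all probe sets did. The siTNF-OMe group was the only one with 0 narrow arrays, and overlap of several members with Control changed when narrow arrays were left out. The median member difference was 0.64, 0.64, 0.65 and 0.54 log2, and over all probe sets the median was -0.026, -0.050, -0.044 and -0.027. Since the genes were chosen on these differences, nothing is read from the counts.

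These counts moved with the narrow arrays and with the batch. Leaving out the narrow arrays gave 9 called members in scrambled in place of 5, where 50% of all probe sets were called in either direction in place of 11.7%. With array SD as a covariate it was also 9, where 25.6% were called. Within hybridization batch 1 alone, with 3 arrays in each siRNA-dosed group and 4 in Control, the counts were 3 for siTNF-OMe-P, 2 for siTNF-OMe, 3 for siTNF and 1 for scrambled, and within batch 2 the count for siTNF-OMe-P was 5. The shares of all probe sets called in either direction were 4.89, 4.27, 2.73 and 3.57% in batch 1. For siTNF-OMe-P in batch 2 the share was 7.68%. Ccl8 was above Control by 3.76, 3.79, 3.56 and 3.87 log2 in batch 1 and 3.34, 3.75, 3.63 and 3.23 in batch 2. Ccl3 differed between batches, at 0.96, 0.67, 1.34 and 0.60 log2 in batch 1 against 0.22, -0.072, -0.065 and -0.23 in batch 2. Ccl2 stood at 0.95, 0.94, 1.38 and 1.10 log2 in batch 1 and at 0.71, 0.61, 0.46 and 0.29 in batch 2.

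The comparison among chemical forms of the Tnf siRNA asks whether they went with other chemokine levels. In limma, 0 of 10 members and 0% of all probe sets passed in any of the 6 comparisons among siRNA-dosed groups, with adjusted p of at least 0.974 for every member. At an unadjusted p under 0.05 there was 1 member in siTNF over scrambled and 0 in the other 5 comparisons, while 74 to 1002 of all probe sets were at that level. The 1 member was Ccl11, at 0.43 log2 above scrambled (95% interval 0.029 to 0.84), with 3 of 6 siTNF arrays above the highest scrambled array. Without siTNF replicate 3 that difference was 0.21.

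Ccl8 in siTNF-OMe-P differed by -0.29 log2 (95% interval -0.70 to 0.12) from siTNF-OMe and by -0.055 (-0.46 to 0.35) from siTNF. In siTNF-OMe it differed from siTNF by 0.23 (-0.20 to 0.67). Over scrambled it was -0.058 (-0.45 to 0.33) for siTNF-OMe-P, 0.23 (-0.19 to 0.65) for siTNF-OMe and -0.0028 (-0.42 to 0.42) for siTNF. These intervals leave room for differences of up to about 0.7 log2 in either direction, small beside the 3.50 to 3.79 over Control. The widest intervals belonged to Ccl3, for example -0.94 to 0.24 for siTNF-OMe over siTNF.

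**Figure D4:**
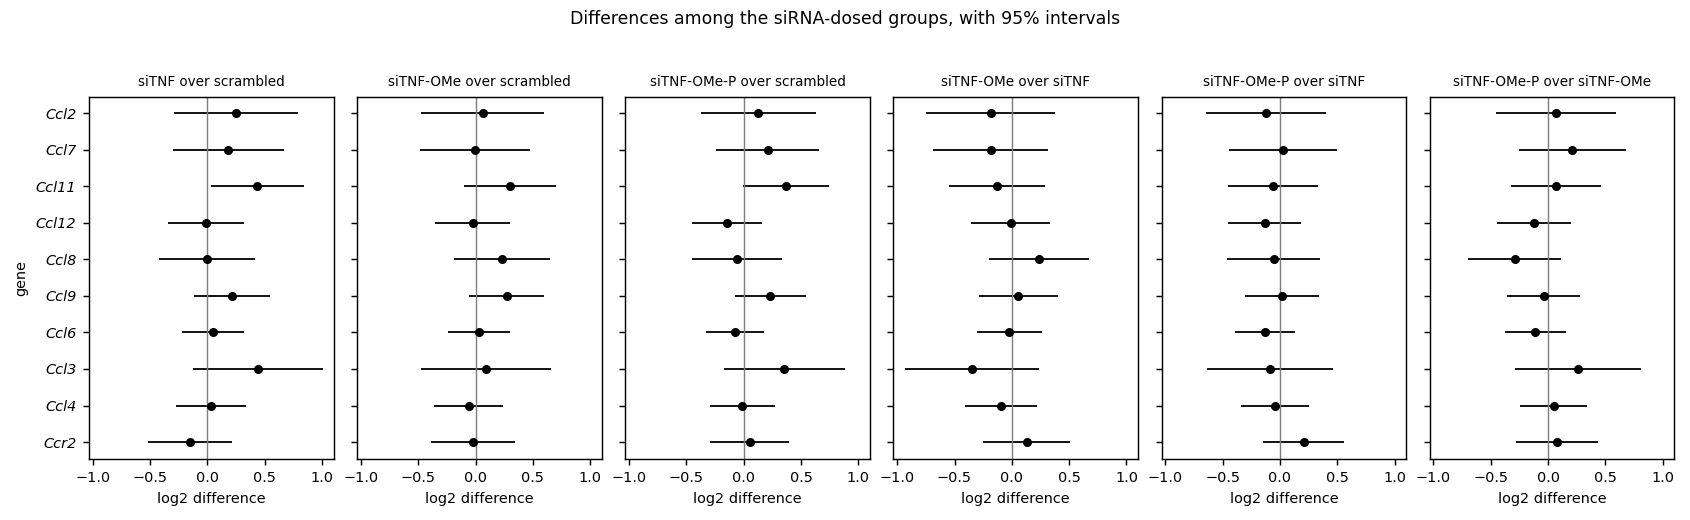
Log2 differences (horizontal axis; points with 95% intervals) of the 10 genes in the 6 comparisons among siRNA-dosed groups. All intervals span 0 except that of Ccl11 in siTNF over scrambled (0.029 to 0.84), and none passed after adjustment over all probe sets.

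Within groups, Ccl2 varied together with several other members. After group and batch were fitted, the residuals of Ccl2 correlated across the 36 arrays with those of Ccl7 (r = 0.91), Ccl11 (0.87), Ccl4 (0.84), Ccl3 (0.79) and Ccl9 (0.75). The highest r of Ccl8 was with Ccr2 (0.71), its r with the neighbour Ccl12 was 0.49, and it was 0.35 with Ccl2, 0.13 with Ccl7 and -0.055 with Ccl4. These values are descriptions over arrays whose spread differed, and the residuals of several members went with array SD, as given below. Without siTNF replicate 3, r was 0.86 for Ccl2 with Ccl7, 0.62 for Ccl2 with Ccl3 and 0.78 for Ccl8 with Ccr2. With the narrow arrays left out (28 arrays) these were 0.86, 0.47 and 0.72, while Ccl2 with Ccr2 was 0.50 in place of 0.035 and Ccl2 with Ccl6 was 0.49 in place of 0.0023. In that setting Ccl8 had an r of 0.61 with Ccl9, 0.59 with Ccl2, 0.58 with Ccl11, 0.34 with Ccl7, 0.33 with Ccl12 and 0.19 with Ccl4. Ccl2 with Ccr2 was 0.43 without siTNF replicate 3 alone. The r of Ccl9 with Ccl3 fell from 0.59 to 0.30 without that array and to 0.23 without the narrow arrays. That of Ccl9 with Ccl4 fell from 0.62 to 0.35 and 0.40, and of Ccl11 with Ccl3 from 0.62 to 0.38 in both settings. Both omissions were chosen after seeing the data.

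**Figure D5:**
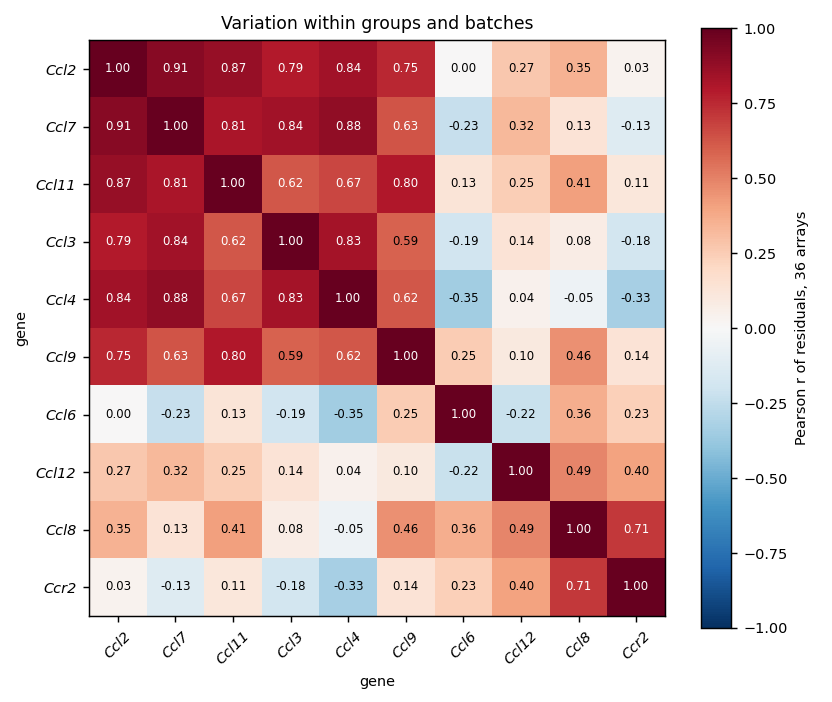
Pearson r (colour and printed values) between the residuals of each pair of members over 36 arrays after group and batch were fitted. Over all 36 arrays Ccl2, Ccl7, Ccl11, Ccl3, Ccl4 and Ccl9 have r of 0.59 to 0.91 with each other. Without siTNF replicate 3, r of Ccl3 is 0.30 with Ccl9 and 0.38 with Ccl11. Ccl8 has its highest r, 0.71, with Ccr2.

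The residuals also went with array SD to different degrees. The r over 36 arrays was -0.83 for Ccl4, -0.75 for Ccl7, -0.70 for Ccl3, -0.55 for Ccl2, -0.39 for Ccl11, -0.28 for Ccl9 and -0.12 for Ccl12, against 0.26 for Ccl8, 0.37 for Ccr2 and 0.73 for Ccl6. In Control the 4 narrow arrays held the highest Ccl2, Ccl7, Ccl11, Ccl9, Ccl3 and Ccl4 values, with no overlap with the other 5, while Ccl8 lay at 6.54 to 6.77 on them and at 6.45 to 6.92 on the others. The mean log2 level of 9 neutrophil markers was 7.92 to 8.10 on the narrow Control arrays and 7.49 to 7.66 on the others, and that of 14 monocyte and macrophage markers was 8.68 to 9.36 against 9.34 to 9.51. The part of array spread in the member values was not tested.

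The genes whose values were most like those of Ccl8 over the 36 arrays, by Pearson r, were Wfdc17 (0.98), Clca4b (0.98), Ms4a6d (0.97), Cd68 (0.97) and Serpina3n (0.97). These include Cd68, a lysosomal protein of macrophages, Ms4a6d, a membrane protein of myeloid cells, and Serpina3n, an acute-phase protease inhibitor, and r here mostly reflects the difference from Control. After group and batch were fitted, the residuals most like those of Ccl8 were of Ifi207 (0.81), Lilr4b (0.80), Fcgr4 (0.79), Slfn5 (0.79) and Lilrb4a (0.78), among them an activating Fc receptor (Fcgr4), an inhibitory receptor of myeloid cells (Lilrb4a) and interferon-inducible genes (Ifi207, Slfn5). For Ccl2 they were Lcp2 (0.92), Ccl7 (0.91), Il1a (0.90), Ifitm6 (0.90) and Pde4b (0.89), and by values Ifitm6, Pde4b, Ccl7, Il1a and Clec4e (0.91 to 0.93). Il1a encodes a cytokine of the interleukin-1 family and Clec4e a receptor of myeloid cells. With the narrow arrays left out, r of the residuals was 0.73 to 0.83 for those 5 genes with Ccl8 and 0.79 to 0.90 for those 5 with Ccl2.

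Across the 27 siRNA-dosed arrays, members were set against myeloperoxidase (MPO) activity, a neutrophil enzyme measured in the same animals, and against colon length and weight to length ratio, with group and batch in the fit. In limma, 0 of 10 members and 0% of all probe sets passed for any of the 3 measures. The slope on log2 MPO was above 0 for all 10 members, with an adjusted p of 0.980 or more, where 58.7% of all probe sets had a slope above 0. At an unadjusted p under 0.05 there were 4 members, where 3.41% of all probe sets were at that level. These were Ccl2 (0.22 log2 per doubling of MPO, 95% interval 0.057 to 0.39), Ccl11 (0.14, 0.0014 to 0.28), Ccl9 (0.12, 0.012 to 0.23) and Ccl6 (0.053, 0.012 to 0.093). Ccl8 had a slope of 0.079 (-0.068 to 0.23). Without siTNF replicate 3 the slope was 0.13 for Ccl2, 0.081 for Ccl11 and 0.074 for Ccl9. That of Ccl12, 0.0022, was -0.017 without siTNF replicate 1. The Ccl2 slope was 0.086 without the narrow arrays and 0.36 without the 2 arrays farthest from the median MPO. For colon length and for the ratio 0 members had an unadjusted p under 0.05, and 3 and 7 of 10 slopes were above 0.

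Among 12 measured CC chemokine receptors other than Ccr2, 4 were called higher than Control in siTNF-OMe-P, 4 in siTNF-OMe, 5 in siTNF and 4 in scrambled, and 0 lower, where 9.35, 9.01, 9.09 and 7.27% of all probe sets were called higher. Ackr1, a decoy receptor of venular endothelium and red cells, was higher by 0.86, 0.94, 0.83 and 0.63 log2, and Ccr7, which guides dendritic and T cells to lymph nodes, by 0.69, 0.87, 0.75 and 0.65. Ccr1, a receptor of Ccl3, Ccl6 and Ccl9, was higher by 0.58, 0.54, 0.44 and 0.42 log2, and Ackr2, a scavenging receptor, by 0.32, 0.29, 0.27 and 0.27. Ccr3, the receptor of Ccl11, was not called and lay between -0.095 and 0.047, and Ccr8 lay between 0.026 and 0.12 and was not called.

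Of 10 other CC ligands, 1 was called higher and 2 lower in siTNF-OMe-P, 2 and 1 in siTNF-OMe, 3 and 1 in siTNF and 2 and 1 in scrambled, where 15.9, 14.8, 13.8 and 11.7% of all probe sets were called in either direction. Ccl5, a T cell and monocyte chemoattractant, was higher by 0.99, 1.14, 1.27 and 1.11 log2. Ccl25, which draws lymphocytes to the small intestine through Ccr9, fell by 0.32 in siTNF-OMe-P and siTNF-OMe, by 0.33 in siTNF and by 0.23 in scrambled. Ccl28, an epithelial chemokine, fell by 0.64 in siTNF-OMe-P. Its uncalled differences were -0.46 in siTNF-OMe, -0.45 in siTNF and -0.19 in scrambled, and no comparison among siRNA-dosed groups passed for it.

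Of 27 genes of chemokine induction and signalling, 15 were called higher in siTNF-OMe-P, 17 in siTNF-OMe, 16 in siTNF and 16 in scrambled, and 0 lower. Over all probe sets 9.35, 9.01, 9.09 and 7.27% were called higher and 6.58, 5.81, 4.71 and 4.45% lower. Il1b, the interleukin-1 beta cytokine, was higher by 1.56, 1.74, 1.44 and 1.07 log2 in that order, and Csf1, the macrophage growth factor, by 0.44, 0.49, 0.44 and 0.32. Neither Il4 nor Il13 was called in scrambled, at -0.13 and -0.073 log2.

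Most markers of myeloid cells were above Control along with the chemokines. Over all probe sets 9.35, 9.01, 9.09 and 7.27% were called higher in siTNF-OMe-P, siTNF-OMe, siTNF and scrambled. Of 14 monocyte and macrophage markers, 12 were called higher in siTNF-OMe-P, 13 in siTNF-OMe, 13 in siTNF and 12 in scrambled, led by Cd68 at 2.02, 2.18, 1.91 and 1.87 log2. Their mean log2 level ran from 10.0 to 10.8 in siTNF-OMe-P, 10.4 to 10.6 in siTNF-OMe, 10.1 to 10.7 in siTNF and 10.1 to 10.6 in scrambled, against 8.68 to 9.51 in Control. Of 9 neutrophil markers 6, 6, 6 and 4 were called higher, with mean levels of 8.20 to 10.4, 8.62 to 9.94, 8.21 to 10.7 and 8.16 to 9.65, against 7.49 to 8.10 in Control. The array with the highest Ccl2, siTNF replicate 3, also had the highest neutrophil level of its group, 10.7 against 8.21 to 8.60 on the other 5. Cx3cr1, of the monocyte and macrophage markers, was not called and lay below Control, at -0.082, -0.059, -0.26 and -0.033 log2. The part of myeloid cells in the chemokine differences was not tested.

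Markers of other cell types were counted in the same way. The shares of all probe sets, in the order of groups below, were 9.35, 9.01, 9.09 and 7.27% higher. For lower they were 6.58, 5.81, 4.71 and 4.45%. In siTNF-OMe-P, siTNF-OMe, siTNF and scrambled, the genes called higher numbered 1, 1, 1 and 1 of 4 T cell markers, 4, 5, 3 and 2 of 6 fibroblast markers, 4, 4, 5 and 3 of 5 endothelial markers and 4, 4, 4 and 4 of 4 smooth muscle markers. Of 7 colon epithelium markers 1, 2, 2 and 2 were higher and 1, 1, 0 and 0 lower. Of 4 B cell markers 1, 3, 3 and 3 were lower. Of 3 adipocyte markers 0 were called, and of 4 squamous epithelium markers, of a lining not found in normal colon, 3, 4, 0 and 0 were higher.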

How the data were processed

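Partek and RMA are named in the submitters' processing notes for the log2 signals that were deposited, 1 per probe set and array; versions, genome build and batch treatment are not given in the sources used here. Probe sets were named from the platform annotation: of 28853, 21789 carry 1 gene, 1621 several and 5443 none. A member or list gene is its single-gene probe set of highest mean. Signal over background is not given, so the number of arrays limits the precision. Nothing in the labels says how animals were housed or allotted, so effects of housing or allotment cannot be told apart from group differences. The p-values set a difference against the variation between the arrays of these animals.

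Differences came from limma 3.58.1 (R 4.3.3), with a linear model of group, 3 amplification and 2 hybridization batches over 36 arrays (28 residual degrees of freedom), with empirical Bayes moderation, a trend and Benjamini-Hochberg adjustment over all probe sets. The fit was also run on simulated data with batch effects and independent noise, but without the differing array spread seen here. That run does not bear on how array spread moved the calls. The gap between Ccl8 and its neighbours was compared by exact two-sided permutation. Slopes were fitted over 27 siRNA-dosed arrays. Python 3.11.15, NumPy 2.4.6, pandas 2.3.3 and matplotlib 3.10.9 were used. Members, lists and tests were chosen with earlier results of these data known. Named were the 10 members, the 5 genes most like Ccl8 and Ccl2 by Pearson r, and up to 4 genes per list, the 2 highest and 2 lowest of those called; chromosome neighbours, Ccr3, Ccr8, Il4, Il13 and genes not among those 4 were added after values were seen. Of the listed genes, 11 had no single-gene probe set and are not analysed here. Alternatives were other batch terms, a replicate block, array SD limits and covariate, normalization, dim probe sets left out, moderation, array weights, single batches and each array left out.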

Additional observations from a re-analysis of the deposited data

Results flagged for a closer look

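In each group of 6 to 9 arrays, a highest or lowest value was marked when its distance from the nearest other exceeded the 95% critical value of Dixon's test, which chance passes in about 1 of 20 groups. Of 55 groups of values, 7 were marked. Of these, 4 came from siTNF replicate 3, a narrow array whose animal had an MPO activity of 0.703 U per mg, the highest of its group. It was highest for Ccl2 at 11.06 log2 (others 8.43 to 9.18), Ccl6 at 12.53 (others 12.15 to 12.26), Ccl3 at 10.21 (others 7.71 to 8.11) and Ccl4 at 8.82 (others 7.33 to 7.74), while its Ccr2 value, 7.71, was the lowest of the group. In siTNF-OMe, replicate 3 was highest for Ccl8 at 10.89 (others 10.23 to 10.48), replicate 5 highest for Ccl4 at 8.00 (others 7.62 to 7.75) and replicate 1 lowest for Ccl9 at 8.52 (others 9.00 to 9.22). No explanation of these values was tested.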

How the results depend on the processing

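The number of members called over Control moved with the narrow arrays and with the batch: for scrambled it was 5 in the reported fit, 9 without them, 9 with array SD as a covariate and 10 with array weights, and array weights also gave 10 for siTNF and 10 for siTNF-OMe (6 each in the reported fit). Within hybridization batch 1 it was 3 for siTNF-OMe-P (8 in the reported fit), 2 for siTNF-OMe, 3 for siTNF and 1 for scrambled, with 3 or 4 arrays a group, and within batch 2 it was 5 for siTNF-OMe-P. With 1 array left out it ran from 5 to 8 for siTNF-OMe-P (5 without replicate 3 or 8), 6 to 7 for siTNF-OMe, 6 to 9 for siTNF and 4 to 7 for scrambled. The shares of all probe sets called with 1 array left out are not given here, so nothing is read from these ranges. With array weights, 56.4% of all probe sets were called in either direction in scrambled, 27.5% in siTNF and 47.7% in siTNF-OMe. Leaving out the narrow arrays moved the median of all probe sets by up to 0.11 log2 and gave 13845, 15575, 6021 and 14417 probe sets called over Control in siTNF-OMe-P, siTNF-OMe, siTNF and scrambled, in place of 4596, 4275, 3982 and 3384. In the same order of groups the counts were 13579, 13758, 7924 and 16262 with array weights, 9400, 8594, 7594 and 7372 with array SD as a covariate, 1411, 1233, 788 and 1031 within hybridization batch 1 and 2215, 2104, 1584 and 1048 within batch 2. Described without a test, the Ccl8 difference over Control ran from 3.34 to 3.76 log2 in siTNF-OMe-P, 3.73 to 3.81 in siTNF-OMe, 3.31 to 3.63 in siTNF and 3.23 to 3.87 in scrambled under 15 alternatives. Among siRNA-dosed groups, 0 of 894 member values under alternatives passed and 0 with 1 array left out, while 91 of the 894 had the opposite sign.

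The gap of Ccl8 over its neighbours changed sign in small, uncalled differences: for siTNF-OMe-P over siTNF it was -0.011 without the narrow arrays and -0.34 within hybridization batch 2, for siTNF-OMe-P over siTNF-OMe 0.021 and for siTNF-OMe over scrambled -0.030 within batch 1, and for siTNF over scrambled 0.13 within batch 2. With 1 array left out, siTNF-OMe-P differed from siTNF by -0.16 to 0.20 and from siTNF-OMe by -0.40 to -0.21, and the gap difference ran from 0.14 to 0.51 for siTNF-OMe over siTNF (passing at 0.51), -0.25 to -0.050 for siTNF-OMe-P over scrambled, 0.058 to 0.25 for siTNF-OMe over scrambled and -0.35 to 0.018 for siTNF over scrambled. The causes were not tested.

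Titles number the replicates, and the values showed little sign that equal numbers pair arrays, which correlations alone cannot settle. Deviations from the group means correlated at a median r of 0.12 over 64 same-numbered pairs (-0.70 to 0.87). The median was -0.0056 for pairs of other numbers, and 5 of 36 arrays correlated best with their own number. When a replicate block replaced the batch terms, 7, 6, 6 and 6 members were called over Control in siTNF-OMe-P, siTNF-OMe, siTNF and scrambled and 0 among siRNA-dosed groups. The shares of all probe sets called over Control in either direction were then 16.3, 13.8, 12 and 11.3%. With same-numbered arrays paired, the gap was 0.064 for siTNF-OMe-P over siTNF, -0.26 for siTNF-OMe-P over siTNF-OMe, 0.32 for siTNF-OMe over siTNF, and -0.11, 0.12 and -0.21 for siTNF-OMe-P, siTNF-OMe and siTNF over scrambled, and 2.85, 3.14, 2.82 and 2.95 over Control for siTNF-OMe-P, siTNF-OMe, siTNF and scrambled.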
